A study of Caenorhabditis elegans with 6 samples.

Results

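Lysozymes are enzymes that cut the peptidoglycan of bacterial cell walls. C. elegans lives on bacteria, so its lysozymes serve the digestion of food as well as defence against infection, and many of them are made in the intestine. The genome codes for a family of lysozymes related to those of protists (lys genes) and a family of invertebrate-type lysozymes (ilys genes). Several of the lys genes are known targets of immune and stress pathways, among them the p38 kinase PMK-1, the FOXO factor DAF-16 of the insulin pathway and the TGF-beta ligand DBL-1.

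The lysozyme genes described are lys-1, lys-2, lys-3, lys-4, lys-5, lys-7, lys-8, ilys-2, ilys-3 and ilys-5, which were taken by WormBase symbol. They are 10 of 46756 genes in the deposited count table, and all 10 were among the 18428 genes tested, which reached 10 counts or more in total. Hermaphrodites of strain ACH93 were grown from larvae as solitary animals, with 1 worm per plate, or in a population of 10 worms per plate, and RNA of whole animals was sequenced on adulthood day 2 in 3 libraries for each condition. Both conditions shared the wild-type N2 background, E. coli OP50 as food, a temperature of 20 °C and a pair of transgenes driven by the myo-3 promoter, which is active in muscle. These transgenes are wacIs1, a red fluorescent proteasome subunit RPN-5, and wacIs14, a green fluorescent mitochondrial marker built on TOMM-20, and each carries unc-119(+). The study made these libraries to look for receptor genes that respond to population density. The labels call the replicates biological, and the number of worms pooled per library is not given in the sources used here.

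The libraries held 55176436 to 62794403 counts. Solitary replicate 3 stood apart from the other solitary libraries on the first principal component, but not on the second. On the first component of 10491 genes with a mean count of at least 100, which took 35.6% of the variance, it lay at 18.4. The other solitary libraries lay at -6.29 and -16.3 there, and the libraries of 10 worms per plate between -7.43 and 7.49. On the second, which took 28.3%, the libraries of 10 worms per plate lay between -13.8 and -2.1 and the other solitary libraries at 10.8 and 8.24. Solitary replicate 3 lay with the latter, at 9.09. Its log2 levels correlated at r = 0.9915 and 0.9888 with solitary replicates 1 and 2, across those genes, which are not independent. With replicates 1, 2 and 3 of the worms grown 10 per plate the values were 0.9913, 0.9949 and 0.9893. Only replicate 2 was thus closer to it than both solitary libraries. That replicate also correlated at 0.9939 and 0.992 with solitary replicates 1 and 2. In 11.6% of those genes it fell within the range of the worms grown 10 per plate while solitary replicates 1 and 2 lay outside that range on one side, against 5.30% to 9.23% for the same count made for each of the other 5 libraries. What sets this library apart cannot be told from the files, and this bears on the values over all 6 libraries as well as on those over the other 5. Results that rest on it are therefore given with and without it. It was singled out after its values had been seen, so the fit without it describes the other 5 libraries.

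The lysozymes lie in a few small clusters and at single sites of the WBcel235 genome. On chromosome V, lys-1 (10277904 to 10279056, plus strand), lys-2 (10280307 to 10281474, minus) and lys-3 (10282100 to 10283544, minus) are neighbours with no other protein-coding gene between them, while lys-7 (3481432 to 3482600, minus) stands alone on the same chromosome. On chromosome IV, lys-4 (11621429 to 11623174, minus) and lys-5 (11624252 to 11625582, minus) are neighbours, as are ilys-3 (2464456 to 2465443, plus) and ilys-2 (2467678 to 2468879, plus). lys-8 is on chromosome II (5586178 to 5587651, plus) and ilys-5 on chromosome X (6533490 to 6536840, minus). Of the 10 genes, 9 shared no exonic base with another annotated gene, and the last 38 bases of lys-8 overlap a gene on the opposite strand, C17G10.13. Each gene has 1 annotated transcript except ilys-5, which has 3. Only uniquely placed reads were counted, so reads from stretches that neighbouring copies have in common would be missing from their counts.

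The lysozymes together took 0.144% to 0.176% of the counts of a library. Compared per kilobase of exonic length (CPM, the count relative to library size after TMM scaling, divided by the length in kb), 6 of the 10 genes were abundant and 4 were scarce. The highest was lys-4 with 435 ± 50.4 (SD over the 6 libraries), followed by ilys-5 with 358 ± 35.2, lys-7 with 331 ± 121, lys-1 with 273 ± 18.03, lys-2 with 145 ± 36.4 and lys-8 with 132 ± 7.98. A wide step separated these from lys-3 with 5.06 ± 1.92, lys-5 with 1.96 ± 0.600, ilys-2 with 0.540 ± 0.348 and ilys-3 with 0.126 ± 0.103. The ranges over libraries of neighbours in this order overlapped except between lys-1 and lys-2, between lys-8 and lys-3 and between lys-5 and ilys-2. The lowest libraries of lys-4 (359) and ilys-5 (315) also lay above the highest of lys-1 (299.6), while lys-7, from 167 to 449, overlapped all 3. The place of ilys-5 depends on the length used, since its annotated exons span 1284 bases and its coding sequence 417. Per kb of coding length it came first, with 1101 against 534 for lys-4, and the order of the other 9 was kept.

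**Figure D1:**
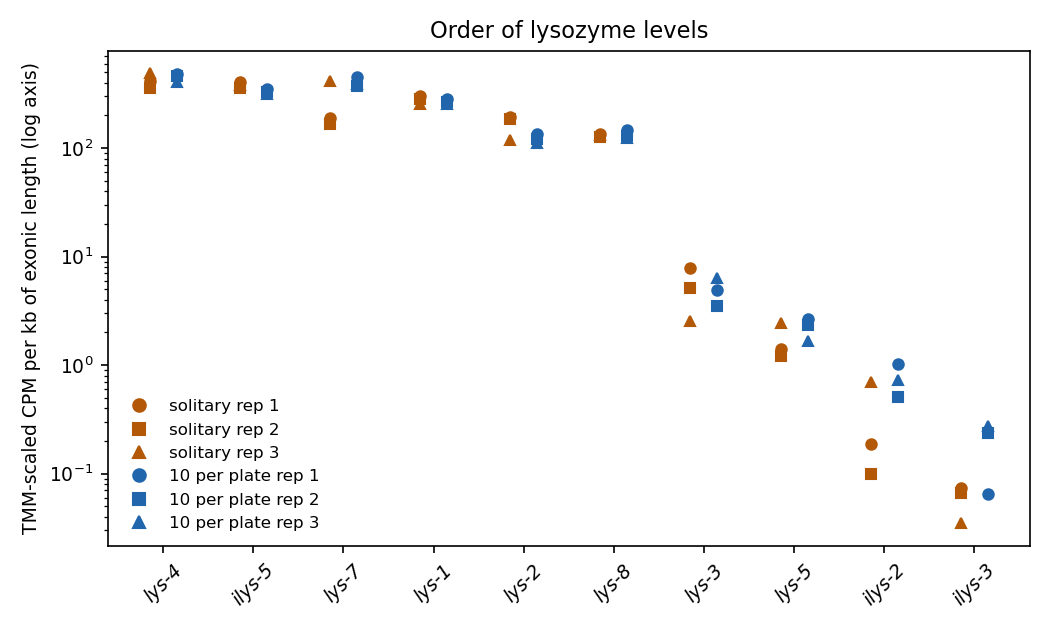
Level of each lysozyme gene in each library, as TMM-scaled CPM per kb of exonic length on a log axis, with solitary libraries in orange, libraries of 10 worms per plate in blue and replicates by marker shape. The 6 genes from lys-4 to lys-8 lie at 112 or above in every library and the other 4 at 7.85 or below.

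The question put to these genes was whether lysozyme transcripts differ between worms grown 10 per plate and solitary worms. With all 6 libraries, 0 of the 10 lysozymes passed at an adjusted p under 0.05 (edgeR quasi-likelihood test, Benjamini-Hochberg), beside 0.239% of all tested genes (44 genes). An unadjusted p under 0.05 was reached by 1 lysozyme, ilys-5, beside 11.9% of the tested genes. DESeq2's Wald test called 1 lysozyme, again ilys-5, beside 4.76% of the genes to which it gave an adjusted p, and it gave no adjusted p for lys-5, ilys-2 and ilys-3. The fitted values were higher in worms grown 10 per plate for 6 lysozymes and lower for 4, with a median log2 fold change of 0.05 against 0.00 over all tested genes. Their median absolute log2 fold change was 0.30, against 0.13 over all tested genes. The libraries of both conditions did not overlap for 1 lysozyme, where 18.3% of the tested genes did not overlap.

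**Figure D2:**
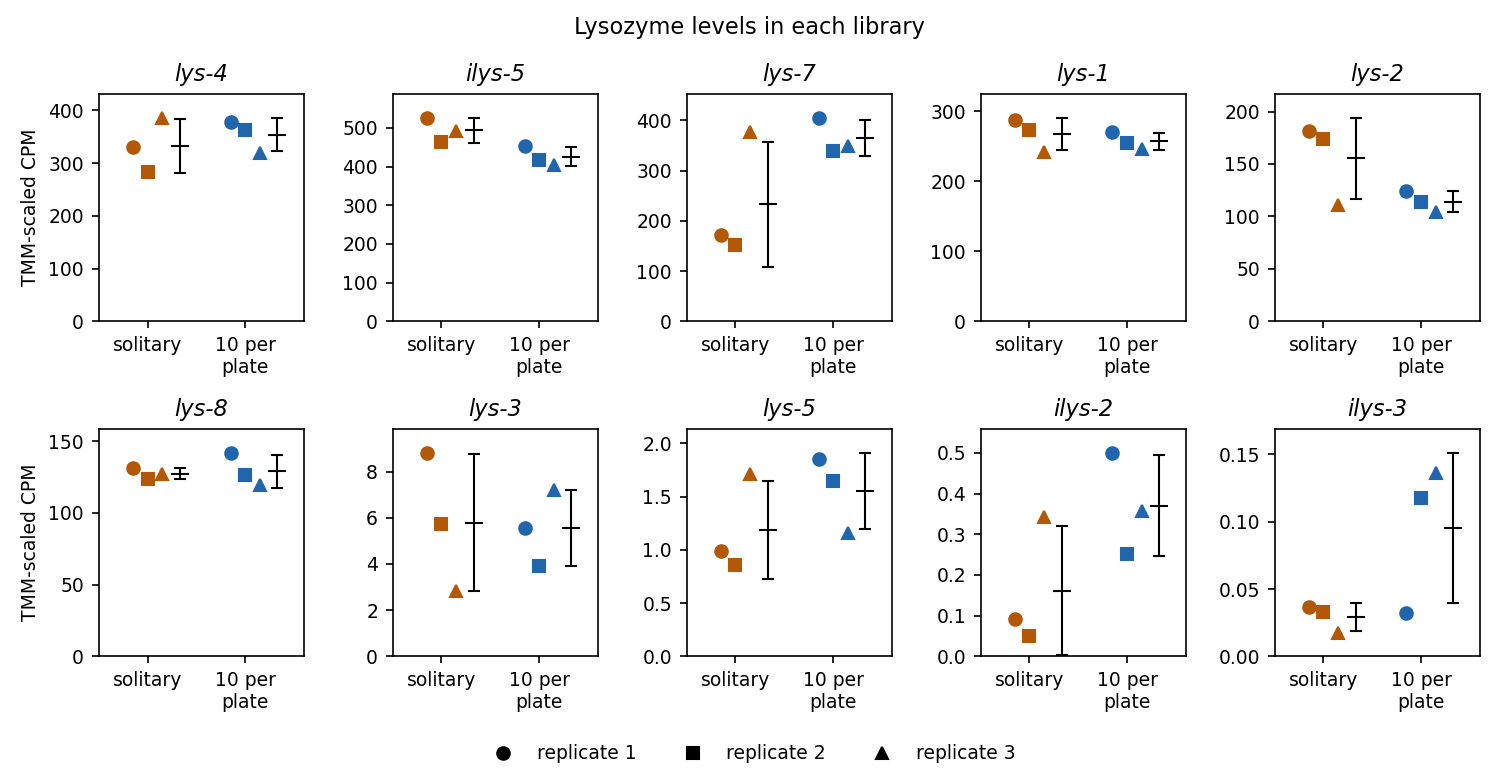
TMM-scaled CPM of the 10 lysozyme genes in each library (marker shape gives the replicate, orange solitary, blue 10 per plate), with the mean and SD of each condition in black, each axis starting at 0. The solitary triangle, replicate 3, sits with the blue points for lys-7, lys-2, lys-5 and ilys-2.

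The most variable of the abundant lysozymes was lys-7, a known DAF-16 target. Its level in solitary worms was 172, 151 and 376 CPM in replicates 1, 2 and 3. In worms grown 10 per plate it was 405, 339 and 350 CPM. Solitary replicates 1 and 2 were thus low, and solitary replicate 3 lay within the range of the worms grown 10 per plate. The means were 233 ± 125 and 365 ± 35.3 CPM (SD, n = 3 each), and the difference did not pass the test (log2 fold change 0.65, SE 0.42, edgeR adjusted p = 0.649), where SE is the standard error. Without solitary replicate 3, lys-7 rose 2.26-fold in worms grown 10 per plate (log2 fold change 1.18, SE 0.10, edgeR adjusted p = 0.00420). In that fit 2.17% of all tested genes were called. Leaving out any of the other 5 libraries gave a log2 fold change of 0.41 to 0.69 and an adjusted p of 0.725 to 0.850. Within the solitary condition the coefficient of variation of lys-7 was 53.5%, against a median of 3.26% over the 1495 tested genes with a mean count within a factor of 2 of its own. Among the worms grown 10 per plate it was 9.69%, against 3.21%. Of all counts of the 10 lysozymes, lys-7 took 10.5%, 10.2% and 21.6% in solitary replicates 1, 2 and 3 and 22.7%, 20.9% and 22.5% in the other libraries.

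The gene lys-2, whose expression is known to depend on PMK-1, showed the opposite direction. It had 181, 174 and 111 CPM in solitary replicates 1, 2 and 3. Worms grown 10 per plate had 125, 113 and 104 CPM. Here solitary replicates 1 and 2 were high, and replicate 3 again lay within the range of the other condition. Over all libraries the log2 fold change was -0.45 (SE 0.22, edgeR adjusted p = 0.543). Without solitary replicate 3, lys-2 fell to 0.643-fold (log2 fold change -0.64, SE 0.07, edgeR adjusted p = 0.00313). With each of the other 5 libraries left out, it stayed between -0.52 and -0.32 with an adjusted p of 0.673 or more. The coefficient of variation of lys-2 was 24.8% among solitary and 8.83% among worms grown 10 per plate, against 3.33% and 3.14% over genes of similar count.

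The same arrangement of libraries was seen in lys-5 and ilys-2, which were both scarce. The level of lys-5 was 0.993, 0.854 and 1.71 CPM in solitary worms. It was 1.85, 1.65 and 1.16 CPM in worms grown 10 per plate, so that solitary replicates 1 and 2 were lowest. The log2 fold change was 0.39 with all libraries (SE 0.28, edgeR adjusted p = 0.646) and 0.75 without solitary replicate 3 (SE 0.25, edgeR adjusted p = 0.165). The counts of ilys-2 were 5, 3 and 20 in solitary worms. They were 31, 15 and 21 in worms grown 10 per plate. The log2 fold change of ilys-2 was 1.19 (SE 0.60, edgeR adjusted p = 0.475) with all libraries and 2.37 (SE 0.54, edgeR adjusted p = 0.0513) without solitary replicate 3, which did not pass the test either.

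For these 4 lysozymes, solitary replicate 3 lay inside the range of the worms grown 10 per plate and solitary replicates 1 and 2 outside it on one side, an arrangement found in 10.1% of the tested genes. On the log2 scale, solitary replicate 3 lay at 104% of the distance from the mean of solitary replicates 1 and 2 to the mean of the worms grown 10 per plate for lys-7, 106% for lys-2, 123% for lys-5 and 97.7% for ilys-2. These 4 were picked by the arrangement, which itself places solitary replicate 3 near the other condition, so the percentages only describe it. For the members not picked in this way they were 168% for lys-1, 330% for lys-3, 163% for lys-4, -30.1% for lys-8, -84.4% for ilys-3 and 1.62% for ilys-5. With solitary replicate 3 left out, edgeR called 2 lysozymes, lys-7 higher (beside 0.665% of the tested genes) and lys-2 lower (beside 1.5%). The same 2 were called when the trend of fold change with exonic length was also removed, beside 1.34% of the tested genes. Without solitary replicate 3 the conditions did not overlap for 6 of the 10, beside 34.1% of the tested genes. DESeq2's Wald test without solitary replicate 3 called lys-7, lys-2 and ilys-5, beside 7.58% of the genes with an adjusted p. Across the 6 libraries, which share their depth and composition between genes, the log2 level of lys-7 had a Pearson r of 0.98 with ilys-2, 0.90 with lys-5, 0.79 with lys-4 and -0.93 with lys-2. Of these, ilys-2, lys-5 and lys-2 share the arrangement by which they were picked, which bears on their values.

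**Figure D3:**
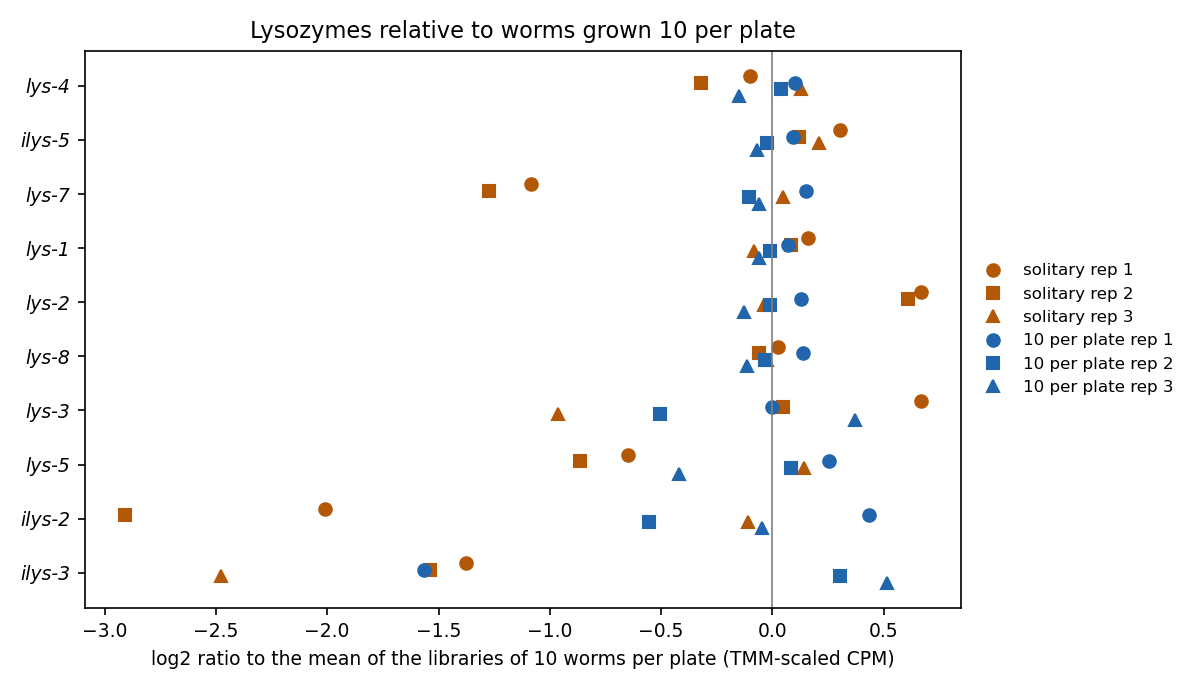
Log2 ratio of each library to the mean of the libraries of 10 worms per plate, for the 10 lysozyme genes in the order of their level (orange solitary, blue 10 per plate, marker shape the replicate). Solitary replicates 1 and 2 stand to the left of 0 for lys-7, lys-5 and ilys-2 and to the right for lys-2, with solitary replicate 3 near 0 in all 4.

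Between neighbouring genes, the Pearson r of the log2 levels over the 6 libraries was 0.90 for lys-1 and lys-2, 0.54 for lys-2 and lys-3, 0.95 for lys-4 and lys-5 and 0.21 for ilys-2 and ilys-3. lys-1, an intestinal lysozyme whose overexpression is known to raise resistance to Serratia marcescens, lies beside lys-2. It had 287, 273 and 242 CPM in solitary worms. It had 270, 255 and 246 CPM in worms grown 10 per plate, so that the conditions overlapped. Its log2 fold change was -0.06 (SE 0.06, edgeR adjusted p = 0.784). Without solitary replicate 3 it was -0.12 (SE 0.05, edgeR adjusted p = 0.234). lys-3, the next gene of that cluster, had 8.80, 5.73 and 2.84 CPM in solitary worms. It had 5.55, 3.92 and 7.18 CPM in worms grown 10 per plate. The libraries of lys-3 thus spread widely within both conditions, with a coefficient of variation of 51.5% and 29.4%, against 9.999% and 9.156% for genes of similar count. Solitary replicate 3 was the lowest of all 6 for lys-3, and the log2 fold change was -0.06 (SE 0.48, edgeR adjusted p = 0.978), or -0.39 without that library (SE 0.31, edgeR adjusted p = 0.631).

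lys-4, the most abundant lysozyme per exonic length, had 330, 283 and 386 CPM in solitary worms. It had 378, 363 and 318 CPM in worms grown 10 per plate. Solitary replicate 3 was the highest of the 6 libraries, and the log2 fold change was 0.09 (SE 0.13, edgeR adjusted p = 0.858). lys-8, which is known to depend on DBL-1 signalling, was the steadiest of the solitary levels, with 131, 124 and 127 CPM. Worms grown 10 per plate had 141.7, 126.1 and 119.2 CPM, which spans the solitary range. The log2 fold change of lys-8 was 0.02 (SE 0.06, edgeR adjusted p = 0.934), and it was 0.02 without solitary replicate 3 as well.

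The invertebrate-type lysozyme ilys-5 was the gene with the smallest unadjusted p among the 10 and the only one whose conditions did not overlap. It had 526, 462 and 492 CPM in solitary worms. It had 453, 418 and 405 CPM in worms grown 10 per plate, each of them below every solitary library. Of the tested genes, 9.83% were lower in this way. The means of ilys-5 were 493 ± 31.7 and 425 ± 25.3 CPM (SD, n = 3 each), a ratio of 0.862 that did not pass the test (log2 fold change -0.21, SE 0.06, edgeR adjusted p = 0.166). Unlike lys-7 and lys-2 it did not turn on solitary replicate 3, since the log2 fold change was -0.22 without that library (SE 0.07, edgeR adjusted p = 0.135) and ran from -0.27 to -0.17 with each of the others left out. DESeq2's Wald test gave an adjusted p of 0.0245 at a log2 fold change of -0.21. In edgeR without a count minimum, where 2.94% of the genes were called, ilys-5 had an adjusted p of 5.89e-04 at a log2 fold change of -0.22. In all other edgeR fits run for ilys-5 the adjusted p ran from 0.121 to 0.558. With the trend of fold change with exonic length taken out of each library the log2 fold change was -0.20 (edgeR adjusted p = 0.558).

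The invertebrate-type lysozyme ilys-3 is known from mutants to be needed for breaking up E. coli in the pharynx and the intestine. In these libraries it had 2, 2 and 1 counts in solitary worms. Worms grown 10 per plate had 2, 7 and 8 counts. The 95% Wilson intervals of single libraries, for counting error alone, spanned 0.00305 to 0.132 CPM in solitary worms and 0.00873 to 0.277 CPM in worms grown 10 per plate. Intervals of single libraries are wide at such counts, so their overlap does not decide whether the conditions differ. The log2 fold change of 1.65 (SE 0.82, edgeR unadjusted p = 0.0682, adjusted p = 0.462) rested on these few counts and did not pass the test.

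**Figure D4:**
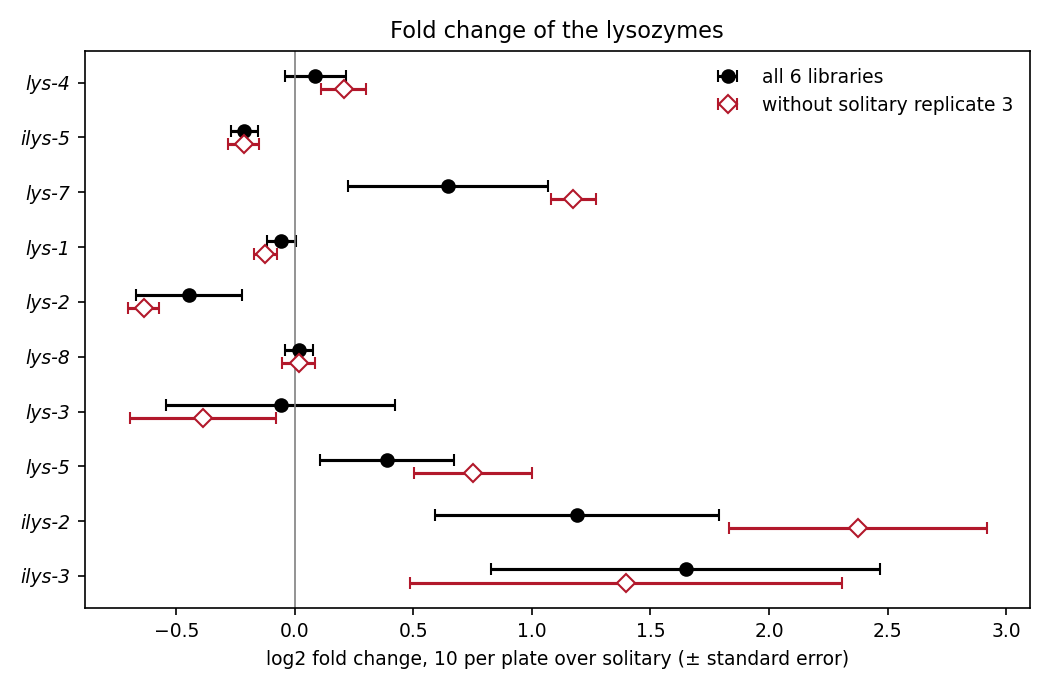
Log2 fold change of each lysozyme gene, worms grown 10 per plate over solitary worms, with its standard error, from edgeR with all 6 libraries (black circles) and without solitary replicate 3 (red diamonds). The value moved away from 0 for lys-7 (0.65 to 1.18), lys-2 (-0.45 to -0.64), lys-5 (0.39 to 0.75), ilys-2 (1.19 to 2.37), lys-3 (-0.06 to -0.39), lys-1 (-0.06 to -0.12) and lys-4 (0.09 to 0.21), and was -0.21 and -0.22 for ilys-5. It moved toward 0 for ilys-3 (1.65 to 1.40) and was 0.02 in both fits for lys-8.

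Another 6 genes with a lys or ilys name were scarce. lys-6, beside lys-5, had 4.07 to 4.80 CPM in solitary worms and 4.11 to 4.64 CPM in worms grown 10 per plate. The invertebrate-type ilys-4 had 2.37 to 2.83 CPM in solitary worms and 2.95 to 3.55 CPM in worms grown 10 per plate. lys-10 (261 counts over the 6 libraries), ilys-6 (83) and ilys-1 (15) were tested on few counts. lys-9 had 2 counts in all and was not tested. Of the 5 tested, 0 passed in edgeR, and 0 were under 0.05 without adjustment. DESeq2's Wald test gave an adjusted p to 1 of the 5, lys-6, and did not call it. Their log2 fold changes were -0.06 for lys-6, 0.26 for ilys-4, 0.11 for lys-10, -0.02 for ilys-6 and -1.93 for ilys-1, and solitary replicate 3 had the arrangement described above in none of the 5 (0 genes).

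Beside the lysozymes, saposin-like proteins (spp genes), which open bacterial membranes, and defensin-like peptides (abf genes) make up a second set of antibacterial effectors. Of 29 genes listed, 25 were tested, and 2 fell in worms grown 10 per plate (beside 0.233% of all tested genes), spp-3 and spp-5, the latter a pore-forming protein known to kill ingested E. coli. The level of spp-3 fell from 111 ± 3.45 to 90.6 ± 5.07 CPM (log2 fold change -0.29, SE 0.05, edgeR adjusted p = 0.0447). That of spp-5 fell from 253 ± 8.96 to 212 ± 9.47 CPM (log2 fold change -0.26, SE 0.05, edgeR adjusted p = 0.0498). These calls were lost in 5 of the 6 fits that left out 1 library, all but the one without solitary replicate 3, and with the length trend removed, where the log2 fold changes were -0.10 and -0.08 (edgeR adjusted p of 0.712 and 0.789). At an unadjusted p under 0.05, edgeR had 7 of the 25 lower and 1 higher (spp-7), beside 11.9% of all tested genes in either direction. DESeq2's Wald test, which gave an adjusted p to 15 of the 25, called 7, beside 4.76% of all genes with an adjusted p. All 7 were lower, namely spp-1, spp-3, spp-4, spp-5, spp-14, spp-15 and spp-17. In edgeR with all libraries, spp-1, spp-4, spp-14, spp-15 and spp-17 had log2 fold changes of -0.47, -0.53, -0.31, -0.21 and -0.21. With the length trend removed these became -0.34, -0.37, -0.13, -0.09 and -0.03 (edgeR adjusted p from 0.7085 to 0.936). The median log2 fold change over the 25 genes was -0.07, and their summed level was 1084 to 1139 CPM in solitary worms and 927 to 1007 CPM in worms grown 10 per plate. The arrangement with solitary replicate 3 inside the other range was found in 7 of the 25, beside 10.1% of all tested genes. In spp-4, which came close to lys-2 across libraries, the levels were 19.2, 18.8 and 11.5 CPM in solitary worms and 12.1, 11.8 and 10.3 CPM in worms grown 10 per plate. Without solitary replicate 3, edgeR called 7 of the 25, with spp-2, spp-18 and abf-5 higher (beside 0.665% of all tested genes) and spp-1, spp-3, spp-4 and spp-5 lower (beside 1.5%). With all libraries the edgeR adjusted p was 0.586 for spp-2, 0.586 for spp-18, 0.796 for abf-5, 0.150 for spp-1 and 0.362 for spp-4.

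**Figure D5:**
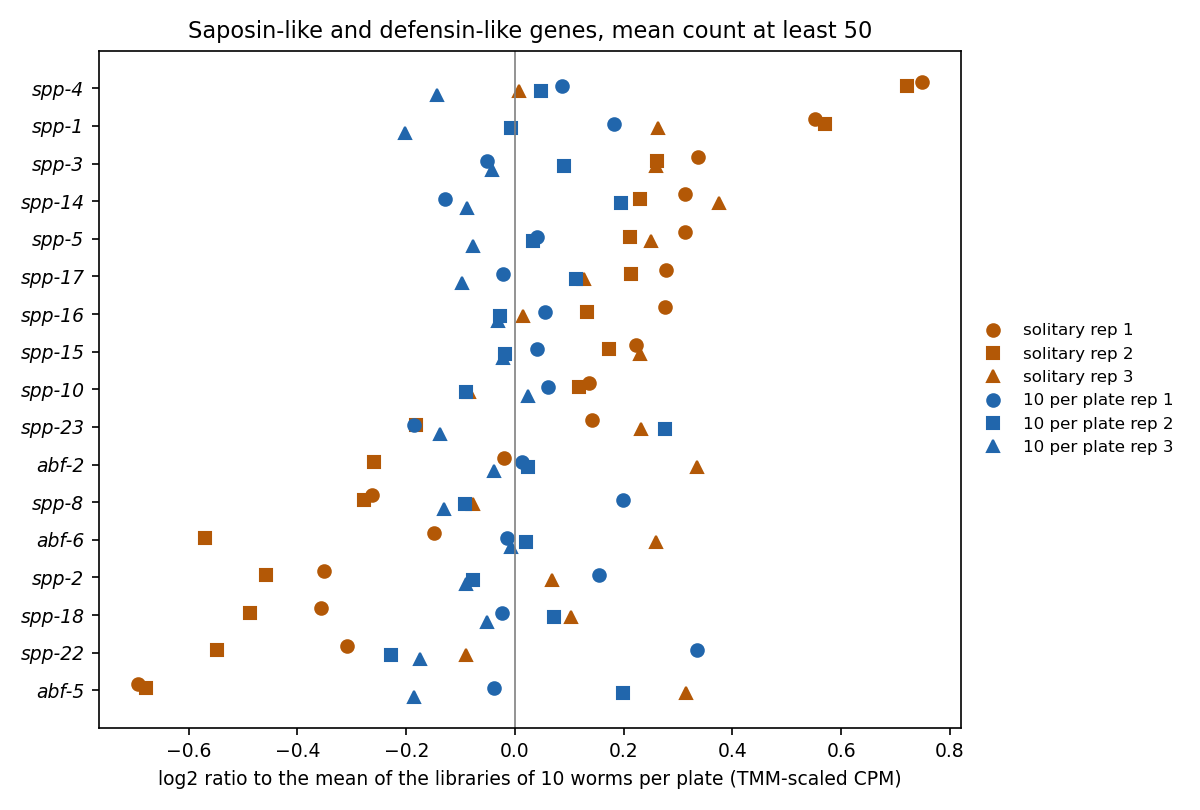
Log2 ratio of each library to the mean of the libraries of 10 worms per plate for the 17 saposin-like and defensin-like genes with a mean count of at least 50, ordered by fold change without solitary replicate 3 (orange solitary, blue 10 per plate, marker shape the replicate). Solitary replicate 3 lies near 0 for spp-4 at the top, while for spp-3 and spp-5 all 3 solitary libraries lie to the right of the blue points.

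Among 16 genes for the digestion of bacteria (nucleases, aspartyl and cysteine proteases), 0 passed in edgeR. At an unadjusted p under 0.05 there were 3 (2 lower in worms grown 10 per plate, 1 higher), beside 11.9% of all tested genes. DESeq2's Wald test called 1, the protease gene cpz-1, beside 4.76% of all genes with an adjusted p. cpz-1 had 509 ± 60.9 and 416 ± 1.25 CPM in solitary and 10-per-plate worms (log2 fold change -0.29, edgeR adjusted p = 0.199). The highest mean CPM over the 6 libraries, not corrected for length, was that of cpr-6 with 1171 ± 44.7 and 1105 ± 31.3 CPM, while in solitary worms asp-6 had 1181 CPM. asp-1, asp-5 and cpz-1 were called lower without solitary replicate 3, beside 1.5% of all tested genes. With all libraries the edgeR adjusted p was 0.541 for asp-1 and 0.418 for asp-5. Of 26 regulators of immunity, among them the p38, insulin, TGF-beta and Toll pathways, 0 passed in edgeR. At an unadjusted p under 0.05 there were 6, all higher in worms grown 10 per plate, beside 11.9% of all tested genes in either direction. These were tir-1, nsy-1, age-1, daf-2, daf-16 and tol-1. Removing the length trend took the log2 fold changes of tir-1, nsy-1 and age-1 from 0.22, 0.20 and 0.13 to 0.11, 0.095 and 0.05. Their edgeR adjusted p then ran from 0.773 to 0.839. DESeq2's Wald test, with an adjusted p for 24 of the 26, called 1, the insulin receptor gene daf-2, beside 4.76% of all genes with an adjusted p. daf-2 had 110 ± 2.36 and 124 ± 5.80 CPM in the same order (log2 fold change 0.18, edgeR adjusted p = 0.144). With the length trend removed the log2 fold change of daf-2 was 0.04. daf-16, which encodes the FOXO factor, had a log2 fold change of 0.22 with all libraries (edgeR adjusted p = 0.323), of 0.14 with the length trend removed (edgeR adjusted p = 0.818) and of 0.31 without solitary replicate 3 (SE 0.05, edgeR adjusted p = 0.0197). For the Toll receptor gene tol-1 these values were 0.18 (edgeR adjusted p = 0.395), 0.09 (edgeR adjusted p = 0.876) and 0.28 (SE 0.05, edgeR adjusted p = 0.0180). These were the 2 regulators called without that library, both higher (beside 0.665% of all tested genes). The regulator with the highest mean CPM, the kinase gene akt-1, had 317 ± 6.16 and 319 ± 3.61 CPM.

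Whole animals were sequenced, so a change in the share of the intestine in the RNA and a change in transcript level within it cannot be told apart. The counts also do not show in which tissue a lysozyme was made. All 10 intestine markers passed the count minimum. Their summed level was 17850 to 19890 CPM in solitary worms and 18190 to 21730 CPM in worms grown 10 per plate, most of it from the yolk protein gene vit-2, and 0 of the 10 passed in edgeR, with 2 at an unadjusted p under 0.05 and 1, the metallothionein gene mtl-2, called by DESeq2's Wald test. mtl-2 had 39.5 ± 2.32 and 31.3 ± 4.53 CPM. Of the 10 intestine markers, 1, the actin gene act-5, shared the arrangement of solitary replicate 3, which was found in 10.1% of all tested genes. It had 273, 256 and 214 CPM in solitary worms and 208, 237 and 218 CPM in worms grown 10 per plate. act-5 was called lower without solitary replicate 3, beside 1.5% of all tested genes (log2 fold change -0.26, edgeR adjusted p = 0.0435, against -0.16 and 0.573 with all libraries). Markers of the pharynx (5 genes), body wall muscle (4), epidermis (5), neurons (5), germline (5), coelomocytes (3) and sperm (2 of 3 tested) had 0 calls in edgeR, with 1, 2, 2, 0, 1, 0 and 0 genes at an unadjusted p under 0.05 and 0, 1, 2, 0, 0, 0 and 0 called by DESeq2's Wald test, which gave an adjusted p to 4, 4, 3, 4, 5, 0 and 0 of them. Over all tested genes, 11.9% were under 0.05 unadjusted, and DESeq2's Wald test called 4.76% of the genes with an adjusted p. In the fit without solitary replicate 3 edgeR called 1 of these markers lower, the muscle gene unc-27, beside 1.5% of all tested genes. Its log2 fold change was -0.35 (edgeR adjusted p = 0.0200), against -0.30 (edgeR adjusted p = 0.115) with all libraries. None of these markers (0 genes) had solitary replicate 3 inside the other range in the same way. The summed level of the epidermis markers was 1030 to 1166 CPM in solitary worms and 775 to 978 CPM in worms grown 10 per plate. Most of this sum came from the collagen genes col-140 and col-19, which were lower. The epidermis markers lin-26, dpy-7 and rol-6 had log2 fold changes of 0.10, 0.24 and 0.19 with all libraries (SE 0.04, 0.97 and 2.12). Without solitary replicate 3 these were 0.11, -0.30 and -0.36, so only lin-26 kept its direction. The counts of rol-6 came nearly all from 1 library of each condition, with 135 and 154. The summed level of the sperm markers, nearly all from spe-9, was 0.919 to 0.994 and 0.682 to 0.742 CPM. The part of the cell type markers in the lysozyme values was not tested.

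By the closeness of their log2 level over the 6 libraries, the genes most like lys-4 among 10491 with a mean count of at least 100 were nhx-2 (Pearson r = 0.9955), which encodes an intestinal sodium-proton exchanger, WBGene00013246 (0.9859) and cpr-4 (0.9846), a cathepsin B-like protease gene. Those most like ilys-5 were F13D11.3 (0.9943), T24E12.10 (0.9929) and clc-23 (0.9897). For lys-7 and lys-2, chosen after their values had been seen, these were C50F7.5 (0.9978), clec-7 (0.9952) and osm-7 (0.9944) for lys-7, and nhr-4 (0.996), spp-4 (0.9938) and C29F3.7 (0.9903) for lys-2. These values describe 6 libraries only. The level of C50F7.5 was 4.45, 3.40 and 39.0 CPM in solitary worms and 58.8, 35.1 and 38.3 CPM in worms grown 10 per plate. For C50F7.5 the distance between solitary replicate 3 and the other solitary libraries was therefore wider than for lys-7.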

How the data were processed

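RNA of whole worms was sequenced in 6 polyA libraries. The authors trimmed paired-end reads (Trimmomatic 0.36), aligned them to WBcel235 (STAR 2.5.2b) and counted unique reads within exons (featureCounts, Subread 1.5.2), and deposited these counts without normalization. Their second table, holding the counts after scaling, was not used. Of 46756 identifiers, 43798 had a symbol. Coordinates and lengths come from Ensembl release 115 of WBcel235.

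Genes with at least 10 counts in total were compared with edgeR 4.0.16 in R 4.3.3 (TMM, robust quasi-likelihood fit, growth condition only) and called at an adjusted p under 0.05. The standard error (SE) of a log2 fold change is its size over the root of the F statistic. CPM use TMM-scaled library sizes. DESeq2 1.42.0, other scalings, filters, thresholds, a replicate block, each library left out and removal of a length trend (lowess, span 0.3) were alternatives. The scripts were tested on simulated data. Depth was 55176436 to 62794403 counts per library. Reads carry no molecular identifiers, so intervals cover counting error only.

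The members and lists (other lysozymes, antibacterial effectors, bacterial digestion, immune regulators, cell type markers) were chosen with earlier results of these data known. Named from a list were genes with an adjusted p under 0.05, otherwise the gene with the smallest p and the most abundant one. Genes named outside this rule, mainly for their level in solitary replicate 3, were picked with their values in view.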

Additional observations from a re-analysis of the deposited data

How the results depend on the processing

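The number of lysozymes with an adjusted p under 0.05 was 0 with all libraries. It became 1 with DESeq2's Wald test, 1 without a count minimum and 1 at an unadjusted p under 0.05 (ilys-5 in all 3), and with single libraries left out it ran from 0 to 2, the 2 being lys-7 and lys-2 without solitary replicate 3. Further combinations were added once the values were known, and of these DESeq2's Wald test without solitary replicate 3 called 3, and edgeR without solitary replicate 3 and with the length trend removed called 2. Over all genes, 44 became 435 with DESeq2, 7 without TMM, 745 without a count minimum, 17 with filterByExpr, 0 with the length trend removed, 0 with the replicate block and the length trend removed together, 2 with an absolute log2 fold change above 1 and 2193 at an unadjusted p under 0.05. With single libraries left out the number ran from 0 to 391, and without solitary replicate 3 it was 917 with DESeq2's Wald test and 242 with the length trend removed. Of 159 fold changes of single lysozymes under alternatives, 143 kept their sign and side of the threshold, 9 kept their sign and passed it, and 7 changed sign. The latter were values of 3 genes, none of which passed the test. For lys-3 they were 0.0099 with the replicate block, 0.035 with the block and the length trend removed together, 0.37 without solitary replicate 1 and 0.14 without replicate 2 of the worms grown 10 per plate, and its range with single libraries left out was -0.39 to 0.37. The same ranges were -0.022 to 0.21 for lys-4 and -0.058 to 0.072 for lys-8. The deviations of same-numbered libraries from their condition means correlated at 0.172, -0.292 and -0.289. Among differently numbered libraries the highest values were 0.411 and 0.298. The former was for solitary replicate 2 with replicate 3 of the worms grown 10 per plate, the latter for solitary replicate 3 with replicate 2. Deviations within 3 libraries depend on each other, so these values cannot show whether libraries were handled in pairs. The replicate block gave 24 genes in all, and it called 0 lysozymes. Coding lengths were taken from the Ensembl annotation in place of RefSeq. Depth limits ilys-3 and ilys-2, with at most 8 and 31 counts per library, and filterByExpr left ilys-3 untested.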
